A study of Mus musculus with 4 samples.

Results

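The immunity-related GTPases (IRGs) are described here as 6 genes of mouse lung, Irgm1, Irgm2, Igtp, Iigp1, Tgtp1 and Tgtp2. They were chosen by symbol among the 46603 Ensembl genes of the deposited unfiltered table, and all 6 were found, each under its own identifier. Of these, 5 are also among the 12850 genes of the deposited filtered table, and Tgtp2 is not. Total lung RNA, depleted of ribosomal RNA, was sequenced in 2 SA and 2 WT samples, from mice all of C57BL/6 background, littermates of 6 to 8 weeks. SA mice carry the Ifnar1 S526A allele, which replaces a serine of this type I interferon receptor chain by alanine, and WT mice are Ifnar1+/+. Every mouse, SA and WT, had been injected through a vein with 100 µl of medium conditioned by B16F10 melanoma cells, 3 times a week for 3 weeks. Lungs of mice without the medium were not analysed here, so each difference is one between genotypes under conditioned medium. The allele is present in all cells of these mice as far as the labels say, and neither the receptor protein nor any IRG protein was measured. The series title names a loss of IFNAR1 under factors from tumours, and setting SA beside WT asks what differs in the lung when the receptor chain carries the substitution.

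IRGs are large GTPases that cells make in response to interferons and that act in cell-autonomous defence, above all against bacteria and protozoa living in vacuoles. The effector proteins, called GKS proteins after a lysine in their nucleotide-binding loop, load onto the vacuole membrane and break it. The regulator proteins, called GMS proteins because a methionine stands in place of that lysine, sit on the cell's own membranes and keep the effectors inactive there. Irgm1, Irgm2 and Igtp (also called Irgm3) encode regulators. Iigp1 (Irga6), Tgtp1 and Tgtp2 (both Irgb6) encode effectors. Transcription of IRG genes is driven by STAT and IRF factors at interferon-stimulated response elements (ISREs), to which IRF factors bind, and at gamma-activated sites (GAS), to which STAT dimers bind.

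The promoters are shown because most members carry both kinds of element close to the start of transcription that RefSeq gives. RefSeq promoters on GRCm38.p6, from 250 bases before to 50 bases after each start, matched 5 of the 6 members. Iigp1 had no entry. An ISRE core was searched as GAAA, any 2 bases and again GAAA, and a GAS as TTC, any 3 bases and GAA, on both strands. Each window below is 60 bases of the gene's own strand, written 5′ to 3′, with the matched letters in capitals. In Irgm1 the capitals cover 2 overlapping ISRE cores, and in the other genes the first capital run is the GAS and the second is the ISRE core.
Irgm1, chr11:48871421-48871480, minus strand: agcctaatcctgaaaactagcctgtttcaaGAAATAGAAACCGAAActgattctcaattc
Irgm2, chr11:58214883-58214942, plus strand: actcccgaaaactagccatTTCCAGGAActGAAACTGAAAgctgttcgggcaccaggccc
Igtp, chr11:58199492-58199551, plus strand: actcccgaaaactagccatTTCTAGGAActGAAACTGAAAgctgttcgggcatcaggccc
Tgtp1, chr11:48992294-48992353, minus strand: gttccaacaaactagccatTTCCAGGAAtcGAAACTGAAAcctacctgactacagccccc
Tgtp2, chr11:49064253-49064312, minus strand: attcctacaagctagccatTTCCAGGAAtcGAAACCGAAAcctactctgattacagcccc

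The ISRE core was found in 5 of these 5 promoters, and it is present in 3.44% of all 32851 RefSeq promoters of the same length. The GAS motif was found in 4 of the 5, all except Irgm1, against 8.30% of all promoters. Both motifs stood together in 4 of the 5, against 0.454% of all. In these 4 genes exactly 2 bases separate the GAS from the ISRE core. The ISRE core began 30 bases before the RefSeq start in Irgm1, 34 in Igtp, 64 in Irgm2, 70 in Tgtp2 and 77 in Tgtp1. The gene spans given below are those of GENCODE, which can place the start elsewhere. The windows of Irgm1, Irgm2 and Tgtp1 lie inside these spans, so their distances hold for the RefSeq start only. Over the whole promoter, Igtp and Irgm2 were 72.8% identical and Tgtp1 and Tgtp2 were 67.0% identical. A match is a run of letters and was not measured as a bound site in these lungs.

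Transcript levels of 5 of the 6 members were higher in both SA libraries than in both WT libraries. The fold ranged from 1.57 for Irgm1 to 3.90 for Tgtp1. Tgtp2 was the exception, with overlapping genotypes. In the fit over all filtered genes (limma, Benjamini-Hochberg adjustment), 0 of the 5 members tested there passed an adjusted p of 0.05, a threshold that 0.311% of filtered genes passed. Igtp, Iigp1 and Tgtp1 stood just above it at 0.0502, a value reached or bettered by 2.47% of genes. At an unadjusted p under 0.05 all 5 were higher in SA, as were 16.4% of filtered genes. Non-overlap with SA on top is common in these libraries, at 37.8% of filtered and 21.3% of unfiltered genes. The median SA minus WT difference over the 6 members was 0.84 on the log2 CPM scale, against 0.06 over all filtered genes. Values are log2 CPM as deposited, that is, reads of a gene relative to all gene reads of that library. A difference is always SA minus WT in log2 CPM, and SE is its standard error in limma. With 2 libraries against 2, an exact two-sided permutation test cannot go below 0.33, so each p rests on the limma model.

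**Figure D1:**
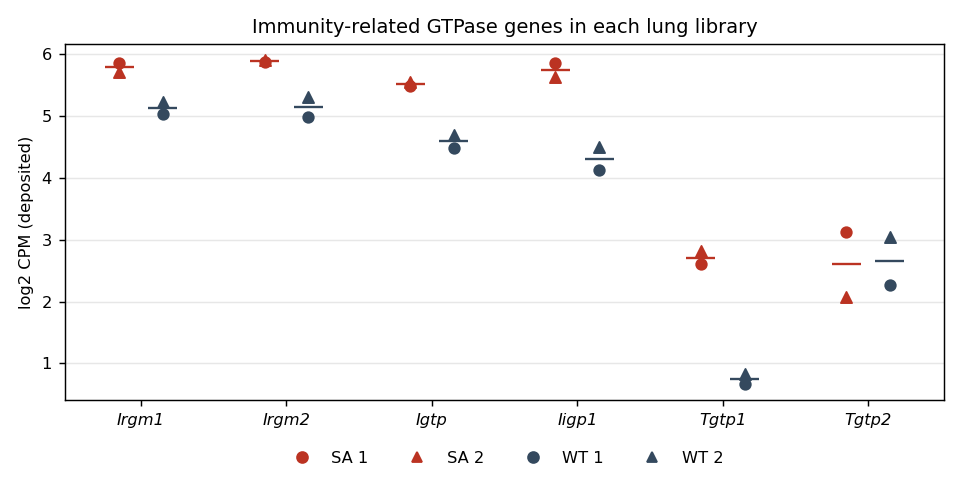
Deposited log2 CPM of the 6 member genes in each library (red, SA; dark blue, WT; circles, library 1; triangles, library 2; bars, group mean of 2 libraries). Both SA points lie above both WT points for Irgm1, Irgm2, Igtp, Iigp1 and Tgtp1, and the genotypes overlap for Tgtp2.

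The 3 regulator genes had differences between 0.65 and 0.93. Irgm1 spans 48861968 to 48871683 of chromosome 11 on the minus strand (GRCm38, GENCODE M21). Its protein associates with Golgi and lysosome-related membranes. Irgm1 was at 5.87 and 5.71 log2 CPM in SA and at 5.04 and 5.23 in WT. The genotypes did not overlap, and the lower SA library stood 0.48 above the higher WT library. The difference was 0.65 ± 0.10 (SE; 95% interval 0.38 to 0.93; limma adjusted p = 0.0590).

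Irgm2, another regulator found on Golgi membranes, spans 58199618 to 58222782 of chromosome 11 on the plus strand. It was at 5.88 and 5.91 log2 CPM in SA, against 4.98 and 5.31 in WT. The SA libraries were nearly level with each other, while WT 2 was 0.33 above WT 1. The Irgm2 difference was 0.75 ± 0.13 (SE; 95% interval 0.41 to 1.09; limma adjusted p = 0.0646).

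Igtp, whose protein sits on the endoplasmic reticulum and lipid droplets, was the regulator gene with the largest difference. It lies on the same strand from 58199556 to 58207591. Its log2 CPM was 5.49 and 5.56 in SA and 4.48 and 4.70 in WT. The Igtp difference of 0.93 ± 0.10 (SE; 95% interval 0.67 to 1.20; limma adjusted p = 0.0502) is a 1.91-fold higher CPM in SA. The annotation of Irgm2 overlaps that of Igtp by 162 exon bases on the same strand, which is 8.01% of the exon length of Igtp and 4.39% of that of Irgm2, so a small part of their reads may be shared. The coding sequences of the 3 regulators are 63.3% to 67.4% identical to each other.

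Among the effector genes that are members, Iigp1 had the highest level per exon length as counted. The levels of Tgtp1 and Tgtp2 are uncertain, since these copies share most of their sequence. Iigp1 spans 60376027 to 60392634 of chromosome 18, plus strand. Its protein forms oligomers on the vacuoles of Toxoplasma gondii in mouse cells. Iigp1 was at 5.86 and 5.63 log2 CPM in SA and at 4.12 and 4.50 in WT. The genotypes were 1.13 apart at their nearest libraries. The Iigp1 difference was 1.43 ± 0.16 (SE; 95% interval 0.99 to 1.87; limma adjusted p = 0.0502), or 2.70-fold. Only 1.69% of the 50-base windows of its transcripts occur in transcripts of another gene.

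Tgtp1, as counted apart from its near-identical copy Tgtp2, had the largest difference of the members, but with the reads of both copies summed the difference was 0.69, below those of Irgm2, Igtp and Iigp1. The gene spans 48985327 to 48994172 of chromosome 11 on the minus strand. It was at 2.61 and 2.81 log2 CPM in SA, against 0.66 and 0.84 in WT, which are 167 and 269 reads in SA and 48 and 56 in WT. The nearest libraries of the genotypes were 1.78 apart. The Tgtp1 difference was 1.96 ± 0.17 (SE; 95% interval 1.50 to 2.43; limma adjusted p = 0.0502). Ranked by the difference among the 12041 filtered genes with a mean of at least 1 log2 CPM, Tgtp1 was 38th from the top, Iigp1 106th, Igtp 413th, Irgm2 634th and Irgm1 777th.

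Tgtp2, on the same strand from 49057194 to 49064206, did not share this pattern. It was at 3.13 and 2.07 log2 CPM in SA and at 2.27 and 3.05 in WT. The highest and the lowest library are both SA, and the genotypes overlap completely. The difference, from the fit on the unfiltered table, was -0.06 ± 0.27 (SE; 95% interval -0.64 to 0.52; limma adjusted p = 0.93). The upper bound of 0.52 rests on a variance shared across all unfiltered genes, while the SD between libraries was 0.75 in SA and 0.55 in WT. The bound therefore does not set Tgtp2 apart from the other 5 members, whose differences come from the filtered fit. The sign of the Tgtp2 difference changed when SA 2 (0.47) or WT 2 (0.33) was left out.

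Tgtp1 and Tgtp2 are near-identical copies, and this bears on how their values can be read. Their coding sequences match at 1241 of 1245 bases (99.68%). Of the 50-base windows in Tgtp1 transcripts, 81.2% also occur in another gene, nearly all of them in Tgtp2, and for Tgtp2 the share is 86.6%. The labels do not say how reads that fit both copies were counted. The values of the separate copies are therefore uncertain. Summed over both, the reads gave 14.8 and 11.2 CPM in SA, against 6.37 and 10.0 CPM in WT. The summed level did not overlap between genotypes, but SA 2 stood close to WT 2. The summed difference was 0.69 ± 0.28 (SE; 95% interval -0.08 to 1.45; limma adjusted p = 0.21 in the filtered table), against 1.96 for Tgtp1 alone. In the fit on the unfiltered table the same difference had an SE of 0.18, a 95% interval of 0.30 to 1.08 and an adjusted p of 0.042. Tgtp1 took 41.1% and 62.6% of the summed CPM in SA and 24.6% and 17.6% in WT.

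The other pair of near-identical IRG genes was also divided unevenly between its copies. 9930111J21Rik1 and 9930111J21Rik2, tandem IRG genes on chromosome 11 next to the Tgtp genes, share 99.57% of their coding bases. 9930111J21Rik1 was at 3.38 and 3.14 log2 CPM in SA and at 3.07 and 3.29 in WT, a difference of 0.08 ± 0.14 (SE; limma on the unfiltered table, adjusted p = 0.93). 9930111J21Rik2 had 237 and 28 reads in SA, against 425 and 454 in WT. SA 2 alone was far below the other libraries. The 9930111J21Rik2 difference was -2.48 ± 1.22 (SE; limma adjusted p = 0.27). In the limma fit on the unfiltered table its SE was 0.65 and its adjusted p 0.036, where 4.75% of genes passed 0.05. Together the copies summed to 19.0 and 9.54 CPM in SA and to 22.3 and 24.1 CPM in WT, so here the summed level was lower in SA. SA 1 stood nearer to WT 1 than to SA 2, and the summed difference was not tested.

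**Figure D2:**
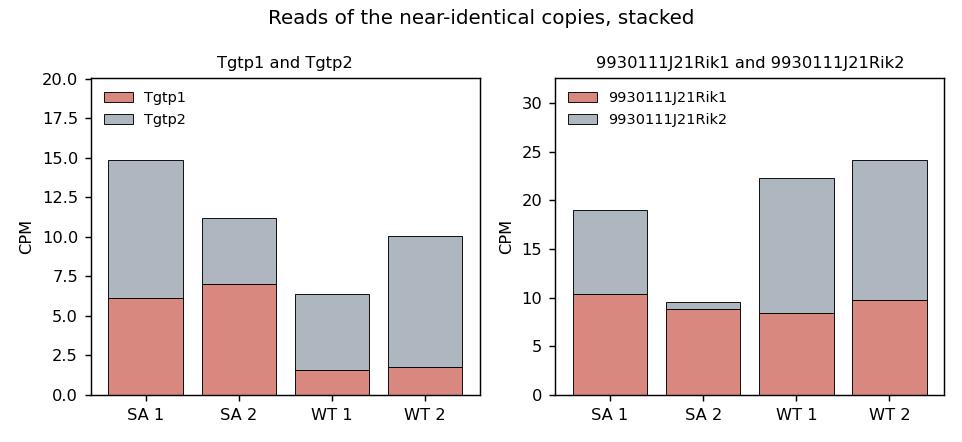
CPM of the near-identical copies, stacked, in each library (left, Tgtp1 in red below Tgtp2 in grey; right, 9930111J21Rik1 in red below 9930111J21Rik2 in grey). The summed Tgtp level was 14.8 and 11.2 CPM in SA and 6.37 and 10.0 CPM in WT, and the grey part of the right panel nearly vanishes in SA 2.

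Compared per length, the order of the levels was led by the regulators. CPM per kilobase of annotated exon was 22.8 ± 0.71 in SA and 12.0 ± 1.27 in WT for Igtp (SD, n = 2 each). It was 16.1 ± 0.19 in SA and 9.67 ± 1.55 in WT for Irgm2. For Irgm1 it was 9.53 ± 0.71 in SA and 6.06 ± 0.59 in WT, and for Iigp1 9.23 ± 1.02 in SA and 3.44 ± 0.64 in WT. As counted, the Tgtp genes were lowest, with 2.20 ± 1.09 in SA and 2.23 ± 0.84 in WT for Tgtp2. For Tgtp1 the values were 2.05 ± 0.20 in SA and 0.52 ± 0.04 in WT. Of the windows in their transcripts, 81.2% for Tgtp1 and 86.6% for Tgtp2 also occur in another gene. The exon lengths were not corrected for this. If reads that fit both copies were left out of the counts, both levels are understated. The place of the Tgtp genes in the order is therefore uncertain. In SA, Irgm1 and Iigp1 overlapped, as did Tgtp2 and Tgtp1, and the other neighbours in the order did not. In WT, each gene's libraries lay apart from those of its neighbour in the order, but Igtp in WT 1 (11.1 CPM per kilobase) was close to Irgm2 in WT 2 (10.8), and Iigp1 in WT 1 (2.99) to Tgtp2 in WT 2 (2.82).

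The step between the libraries of a genotype gives a scale of the variation within that genotype. Variation that separates the groups for reasons other than the allele does not show in it. All 6 members were higher in WT 2 than in WT 1, by a median of 0.27 log2, against a median step of -0.01 over all filtered genes, of which 46.5% were higher in WT 2. Between the SA libraries 3 of the 6 were higher in SA 2, with a median step of -0.06. The step in WT was 0.20 for Irgm1, 0.33 for Irgm2, 0.22 for Igtp, 0.38 for Iigp1 and 0.17 for Tgtp1. The step from SA 1 to SA 2 was -0.15 for Irgm1, 0.02 for Irgm2, 0.06 for Igtp, -0.23 for Iigp1 and 0.20 for Tgtp1. For each of these 5 genes the difference between genotypes exceeded both steps. For Tgtp2 the steps of -1.06 in SA and 0.78 in WT were larger than the difference.

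**Figure D3:**
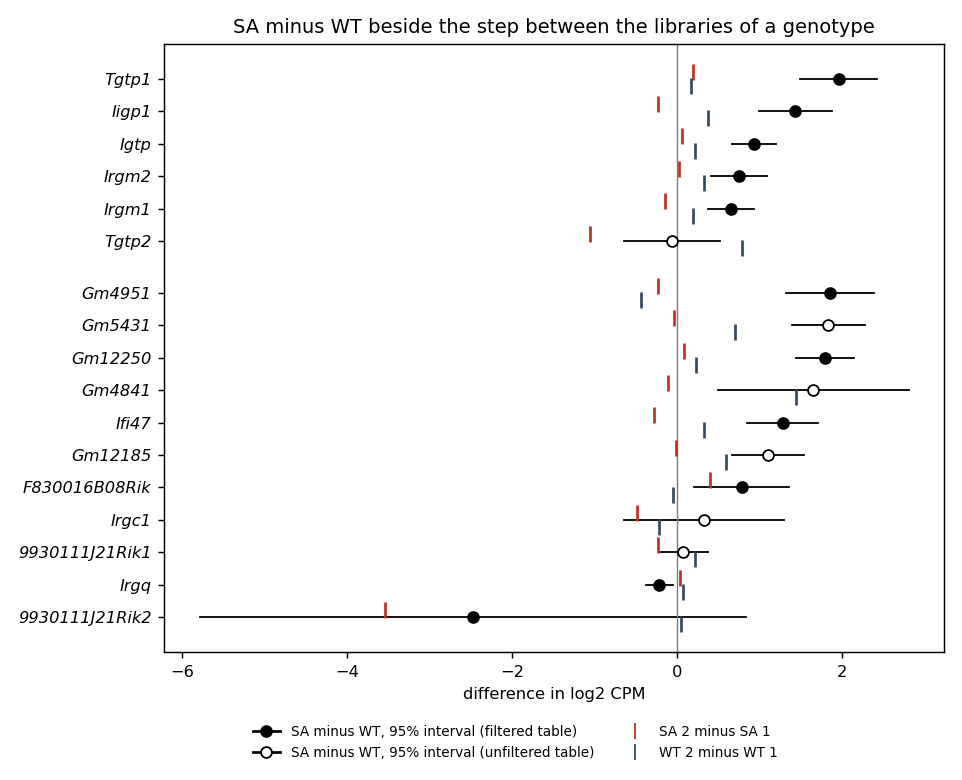
SA minus WT difference in log2 CPM for each IRG locus (points with 95% limma intervals; filled, filtered table; open, unfiltered table), with ticks for the step from library 1 to library 2 within SA (red, above) and within WT (dark blue, below). Members are at the top and the other family loci at the bottom; for Tgtp2, 9930111J21Rik1, 9930111J21Rik2 and Irgc1 a step is larger than the difference.

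Other loci of the family were measured as well, 11 in all, and 9 of them were higher in SA on average. Both SA libraries stood above both WT libraries at 7 of the 11, as at 37.8% of filtered and 21.3% of unfiltered genes. Gm12250 rose in SA and was the only one of the 11 family loci in the filtered table past an adjusted p of 0.05 there. RefSeq gives it the name Irgb10, whose protein acts with guanylate-binding proteins on bacterial membranes, while GENCODE M21 lists it as a processed pseudogene. It was at 4.05 and 4.14 log2 CPM in SA, against 2.19 and 2.41 in WT. The Gm12250 difference was 1.80 ± 0.13 (SE; limma adjusted p = 0.0430).

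Ifi47, which encodes the effector Irgd, differed by 1.28 ± 0.16 (SE; limma adjusted p = 0.0502). It was at 5.77 and 5.50 log2 CPM in SA and at 4.19 and 4.51 in WT, with no overlap. Gm4951, named Ifgga2 in RefSeq, was at 4.18 and 3.95 log2 CPM in SA and at 2.43 and 1.99 in WT, a difference of 1.86 ± 0.20 (SE; limma adjusted p = 0.0502). F830016B08Rik, named Ifgga4, differed by 0.78 ± 0.21 (SE; limma adjusted p = 0.12) and Gm4841, named Ifgga3, by 1.65 ± 0.55 on 5 to 34 reads per library (limma on the unfiltered table, adjusted p = 0.12). These 3 genes and Iigp1 are the 4 measured loci of the family on chromosome 18, and both SA libraries were above both WT libraries at all 4. On chromosome 11 that held for 8 of 11 loci, and on chromosome 7 for 0 of 2. Over all genes it held for 37.8% of filtered and 21.3% of unfiltered ones.

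Among loci outside the filtered table, Gm5431 and Gm12185 lie in the chromosome 11 group beside Tgtp1. Gm5431 had 204 and 279 reads in SA and 49 and 83 in WT, a difference of 1.84 ± 0.21 (SE). Gm12185 had 139 and 193 reads in SA and 58 and 91 in WT, a difference of 1.11 ± 0.21. Both passed in the fit on the unfiltered table (limma adjusted p = 8.3e-05 and 0.0036), in which 4.75% of genes did. Of the 50-base windows of Gm5431, 37.3% are shared with other genes, and of Gm12185 19.5%, and 223 exon bases of Gm12185 overlap Tgtp1 on the same strand.

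The loci on chromosome 7 did not follow. Irgq, which encodes a relative that lacks the residues for GTP binding, was at 5.28 and 5.32 log2 CPM in SA and at 5.48 and 5.55 in WT, a difference of -0.21 ± 0.06 (SE; limma adjusted p = 0.13). Irgc1, known mainly from testis, had 21 and 21 reads in SA and 17 and 15 in WT and overlapped between genotypes. RefSeq promoters were found for 12 of the 17 family loci. The ISRE core was present in 8 of them, of which 6 had both SA libraries above both WT libraries. It was absent in 4, of which 2 did. Over all genes that held for 37.8% of filtered and 21.3% of unfiltered ones. The 8 include the near-identical copies Tgtp1 and Tgtp2, and a link between motif and difference was not tested. Gm12250 and Gm12185 held both motifs. Ifi47 and Gm5431, with differences of 1.28 and 1.84, held neither in this window, as did Irgq and 9930111J21Rik2.

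Genes that act upstream of the IRGs were measured in a list of 13. Irf9 and Stat2, which encode transcription factors that type I interferon activates, were among its lowest p-values. Irf9 was at 6.32 and 6.22 log2 CPM in SA and at 5.60 and 5.62 in WT, a difference of 0.66 ± 0.06 (SE). Stat2 differed by 0.59 ± 0.07, with no overlap between genotypes. Both stood at a limma adjusted p of 0.0502. Jak1, a kinase bound to both interferon receptors, differed by -0.20 ± 0.06 (SE; limma adjusted p = 0.14). None of the 12 genes in the filtered table passed in limma (0 of 12). At an unadjusted p under 0.05 there were 4 higher genes and 2 lower ones, against 2106 higher and 1402 lower of 12850 filtered genes. The median difference of the 13 was 0.07. Ifnar1 itself was at 6.22 and 6.03 log2 CPM in SA and at 6.09 and 6.14 in WT, and its mRNA level does not check the allele. Ifng, the type II interferon gene, had 5 and 4 reads in SA and 1 and 2 in WT, too few for a comparison. Ifnar1 and Ifng are named for their place in the pathway and not by their p.

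Guanylate-binding proteins (GBPs), the other family of interferon-induced GTPases that load onto pathogen vacuoles, were at higher levels in SA throughout the list. Both SA libraries were above both WT libraries for 11 of 11 genes, as for 37.8% of filtered and 21.3% of unfiltered genes. The median difference was 0.99, and 0.86 over the genes in the filtered table. Gbp10, Gbp11 and Gbp2b rested on few reads, at 8 to 62, 2 to 33 and 3 to 20 per library. For Gbp11 and Gbp2b the step from WT 1 to WT 2 (2.39 and 1.79) was larger than the difference (1.86 and 1.32). In limma 0 of the 10 genes in the filtered table passed. At an unadjusted p under 0.05, 8 were higher, as were 16.4% of filtered genes. Gbp3 was at 5.65 and 5.80 log2 CPM in SA and at 4.60 and 4.80 in WT, a difference of 1.02 ± 0.10 (SE; limma adjusted p = 0.0502). Gbp2 differed by 0.56 ± 0.07 (adjusted p = 0.0502), Gbp6 by 1.03 ± 0.14 (adjusted p = 0.0524) and Gbp7 by 0.73 ± 0.10 (adjusted p = 0.0533). Summed over the list, GBP transcripts were at 344 and 322 CPM in SA and at 202 and 218 CPM in WT. The 6 IRG members summed to 235 and 220 CPM in SA and to 111 and 136 CPM in WT.

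The Atg8 conjugation genes, whose products direct IRG and GBP proteins to vacuoles, had small differences. The median difference over 13 genes was 0.12, and 0 passed in limma. The unadjusted p was under 0.05 for 2 genes higher in SA and 1 lower, against 2106 higher and 1402 lower of 12850 filtered genes. Trim21, an E3 ubiquitin ligase that is itself interferon-induced, was at 4.86 and 4.65 log2 CPM in SA and at 4.03 and 4.17 in WT, a difference of 0.65 ± 0.11 (SE; limma adjusted p = 0.0659). Atg5, part of the conjugation complex, differed by 0.28 ± 0.06 (adjusted p = 0.0949). Traf6, another E3 ligase at the vacuole, differed by -0.20 ± 0.07 (adjusted p = 0.16), and Map1lc3a, an Atg8 protein, by 0.15 ± 0.07 (adjusted p = 0.24).

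**Figure D4:**
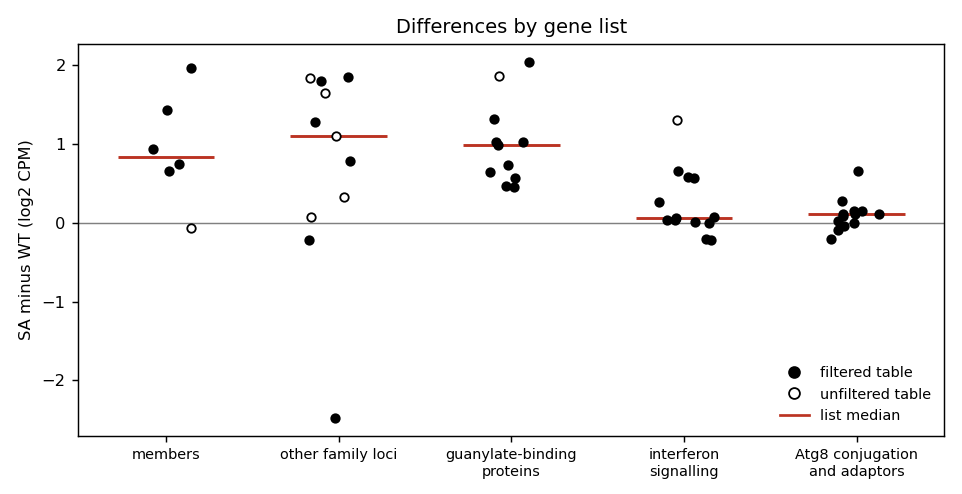
SA minus WT differences in log2 CPM of the genes in 5 lists (filled points, filtered table; open points, unfiltered table; red bars, list medians; horizontal jitter has no meaning). The IRG members and the GBPs have medians of 0.84 and 0.99, and the interferon signalling and Atg8 lists have medians of 0.07 and 0.12.

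The calls depend on the table and on the variance model more than the sizes do. In the fit on the unfiltered table the 5 members that were higher in SA all passed, at limma adjusted p-values of 5.9e-06 for Iigp1 to 0.0010 for Irgm1, and 4.75% of the genes there passed as well. With that table restricted to genes with a mean of at least 1 log2 CPM, 0 of the 6 passed (adjusted p of 0.0503 to 0.0618 for these 5), where 0.248% of genes passed. In voom on the recovered reads 3 of the members passed, which were Igtp, Iigp1 and Tgtp1 under both scalings tried, in fits where 2.09% (unscaled totals) and 3.19% (median-of-ratios scaling) of filtered genes passed. With any of the 4 libraries left out, 0 of the 6 passed, while Irgm1, Irgm2, Igtp, Iigp1 and Tgtp1 kept their direction.

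Lung RNA holds many cell types, and fewer cells of a type and less RNA per cell cannot be told apart in such samples. Lung epithelial markers were abundant in every library, at 50375 and 42241 summed CPM in SA and at 46653 and 41388 in WT, which fits the labelled tissue. Markers of several other cell types shared the members' direction between genotypes, and their part in the result was not tested. T and NK cell markers, which were few in reads, summed to 28.3 and 25.7 CPM in SA and to 16.5 and 16.7 in WT. Both SA libraries were above both WT libraries for 7 of 8, as for 37.8% of filtered and 21.3% of unfiltered genes. Gzma had the most reads. The exception was the T cell marker Cd3e, with 24 and 32 reads in SA and 30 and 33 in WT. Ciliated cell markers summed to 482 and 506 CPM in SA and to 229 and 293 in WT. Both SA libraries were above both WT libraries for 7 of 7 measured genes, as for 37.8% of filtered genes. Between the WT libraries 7 of 7 were higher in WT 2, as were 46.5% of filtered genes. Their median difference was 0.86. This list was added after the genes of like profile had been seen, so its likeness to the members is no independent result. Cardiac muscle markers summed to 802 and 1476 CPM in SA, against 214 and 427 in WT, and skeletal muscle markers to 1742 and 2364 CPM in SA, against 767 and 1004 in WT. Endothelial markers were lower, at 2138 and 1861 CPM in SA and at 2865 and 2502 in WT. Macrophage markers (392 and 396 CPM in SA, 464 and 384 in WT), neutrophil markers (26.4 and 23.0 in SA, 28.4 and 20.2 in WT) and B cell markers (24.6 and 31.3 in SA, 12.5 and 35.2 in WT) overlapped between genotypes. No marker gene was at 0 in all libraries.

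The genes whose pattern over the 4 libraries was most like that of the members were found by the root-mean-square (RMS) difference between log2 CPM profiles, each centred on its own mean. The members' mean profile was 0.57 in SA 1, 0.38 in SA 2, -0.65 in WT 1 and -0.30 in WT 2. Among 11053 protein-coding genes outside the lists, the nearest was Cxcr6, a chemokine receptor gene, with an RMS difference of 0.0377 and an SA minus WT difference of 0.96. Others among the nearest 6 were Erich2 (0.0471), Spef2 (0.0525), Fanca (0.0559) and Lca5 (0.0568). None of the 6 passed the adjusted threshold, and 4 libraries give a profile few degrees of freedom. The choice of genes depends on Tgtp2. Without it, 0 of those 6 genes stayed among the nearest 6, which were then Agr3 (0.0335), Slc10a5, Tmem232, Ccdc151, Cdkl4 and Pifo (0.0575).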

How the data were processed

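Per the labels' protocols, lung total RNA was made into stranded libraries after ribosomal RNA removal. The submitters' processing notes list GRCm38 as the build and Subread, featureCounts and limma as tools. For counting settings, read length, annotation release and the filter's rule the labels give nothing. The deposited values are log2 CPM in a filtered and an unfiltered table. From the values, the authors' log2 CPM has 0.5 added to each read count and 1 to the total, and the reads recovered from it were whole for 100% of genes (within 0.001 read). Library totals were 27381916 and 38378936 reads in SA and 30611946 and 31645038 in WT, which puts 3 reads at 0.078 to 0.11 CPM. Such limits cover counting error only.

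Genotypes were compared on the log2 values by limma 3.58.1 (R 4.3.3; lmFit, eBayes with a trend, genotype only, two-sided) on the filtered table of 12850 genes, with Benjamini-Hochberg adjustment over all of them and a threshold of 0.05. Genes outside that table took their values from the same fit on the unfiltered table of 46603. The design text calls the libraries biological replicates, but the labels number no animals. The p-values therefore weigh a difference only against the spread between these samples and a variance that limma shares across genes.

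The members and lists were chosen with earlier results of these data known. The rule for naming was all members, all other family loci measured, the 4 lowest p-values of each further list, and 6 genes of like profile. Some genes that the rule names are not reported here. Ciliated cell markers and the profile without Tgtp2 were added after seeing the data. Exon lengths, overlaps and shared 50-base windows came from GENCODE M21, coding and promoter identities from global alignments (Biopython 1.88), and promoters from RefSeq. Alternatives were the replicate block, the unfiltered table, filters on the mean, median centring, quantile normalization, each library left out, no trend, a robust trend, another pseudocount, voom and the Tgtp reads summed. Python 3.11.15, pandas 2.3.3, numpy 2.4.6 and matplotlib 3.10.9 were used.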

Additional observations from a re-analysis of the deposited data

How the results depend on the processing

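The count of members past the threshold depended on the processing, and the sizes less so. Against 0 of 6 as reported (limma), where 40 of 12850 genes passed, 5 passed in the unfiltered table (with 2213 of 46603 genes) and with a robust trend (611 genes). The count was 3 when filtered genes had to average at least 1 log2 CPM (415 genes), and also 3 with median centring (476), voom on totals (268) and voom on median-of-ratios scaling (410). With quantile normalization (0 genes), no trend (1), a pseudocount of 2 reads (48), the Tgtp reads summed (40) and the unfiltered genes averaging at least 1 log2 CPM (36), 0 members passed. With each library left out the count was 0 to 0. The fit with the replicate number as a block (replicate block) gave 5, among 3179 genes past the threshold. The correlation of the deviations of libraries of the same number was 0.64 over 12041 genes, but with 2 numbers and no label that ties them they share only a number. The cause of these changes was not tested. The median member difference lay between 0.70 and 0.98 in all 16 alternatives. Irgm1, Irgm2, Igtp, Iigp1 and Tgtp1 were higher in SA in all 16, with Igtp at adjusted p-values of 7.4e-05 to 0.25. Tgtp1 came to 0.69 once its reads were summed with those of Tgtp2. Tgtp2 changed sign without SA 2 (0.47) and without WT 2 (0.33) and ranged from -0.59 to 0.47 over the libraries left out. Among all filtered genes 40 passed as reported, 21 higher and 19 lower, against 169 higher and 307 lower with median centring and 165 and 245 with median-of-ratios scaling. Median centring moved the median of all unfiltered genes to -0.24, against -0.06 as reported, and Tgtp2 to -0.24. At 1 to 5 reads Ifng was below what this depth can compare.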
